A study of Mus musculus with 24 samples.

Results

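Stomach corpus from germ-free mice, which are raised without microbes, was compared with corpus from conventional mice, which carry a microbiota. The members were the arrays titled as germ-free corpus 1 to 3 and conventional corpus 1 to 3, so 6 of the series' 24 Affymetrix arrays, read over all 12488 probe sets of the mouse array apart from 66 control probe sets. The series surveyed 4 regions of the tract (corpus, jejunum, descending colon and rectum), with 3 arrays for each region and status. Whole tissue was taken, rinsed in cold buffer, kept in RNA preservative and frozen, and all stomach outside the antrum, told apart by its colour, was counted as corpus. The labels give microbial status and region for each array and no strain, sex, age, diet or genotype, and both groups are otherwise described alike. They do not state that the 3 arrays of a group came from separate mice, so p-values measure only the spread between arrays within groups. That spread was pooled over the groups of all 4 regions, except where the corpus arrays were fitted alone. The comparison of the groups is given as labelled and again without germ-free corpus 3, whose signals opposed its label. Some single values are given in 1 reading only.

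The corpus mucosa is built of tubular glands. Parietal cells secrete acid through a proton pump and, in rodents, share the making of gastric intrinsic factor with chief cells, which secrete digestive enzymes, while surface and neck cells make mucus and endocrine cells release ghrelin, somatostatin and histamine. The rodent stomach also has a keratinised squamous forestomach. In whole tissue, fewer cells of a type and less RNA per cell cannot be told apart.

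Atp4a, the catalytic subunit of the gastric proton pump, read 7435, 9742 and 10364 signal units on conventional corpus 1 to 3 and 8185, 14479 and 176 on germ-free corpus 1 to 3. Atp4b, the pump's other subunit, read 5095, 5993 and 7751 against 5232.5, 10947 and 9.2. Both markers of the labelled region were therefore high on 5 arrays and low on germ-free corpus 3. That array instead carried Hoxb13, a homeobox gene of the hindgut, at 1399, against 28.6 to 48.7 on the other 5, and its keratin Krt4, a squamous gene, was at 277 against 8217 to 9892. Its nearest array was germ-free descending colon 3, with a Pearson r of 0.9871 across probe sets, the highest of the 276 pairs of arrays in the series (next 0.9792). The pair differed by over 2-fold at 96 probe sets, 1.06% of those tested. The share was 2.09% for conventional rectum 2 and 3, and 5.45% for germ-free descending colon 2 and 3. Between germ-free corpus 1 and 2 it was 9.47%. Pancreatic enzyme genes were also high on it, with Ctrb1, a chymotrypsinogen, at 4634 and Prss2, a trypsinogen, at 3218. Germ-free corpus 1 and 2 correlated with the conventional corpus arrays at 0.9315 to 0.9531. Array medians were 82.1 to 85.9 on 5 corpus arrays and 102.5 on germ-free corpus 3. The ratio of 3′ to 5′ control probe sets, a check on RNA quality, was higher on germ-free corpus 1 and 2. For Gapdh it was 0.946 and 0.894 there, 0.737 to 0.829 on the conventional arrays and 0.738 on germ-free corpus 3. For actin it was 1.431 and 1.327, against 1.21 to 1.31 and 1.167. The part of RNA quality in the results was not tested.

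The promoters of Atp4a and of Cblif, gastric intrinsic factor, are shown because the signals of both genes set the 5 gastric arrays apart from germ-free corpus 3. Each is the RefSeq window (GRCm38.p6) of 250 bases before the gene's start, 5′ to 3′ on the plus strand, at chr7:30711959-30712208 and chr19:11747309-11747558. Capitals mark GATA or its reverse complement TATC, the core bound by GATA factors, searched on both strands.
Atp4a: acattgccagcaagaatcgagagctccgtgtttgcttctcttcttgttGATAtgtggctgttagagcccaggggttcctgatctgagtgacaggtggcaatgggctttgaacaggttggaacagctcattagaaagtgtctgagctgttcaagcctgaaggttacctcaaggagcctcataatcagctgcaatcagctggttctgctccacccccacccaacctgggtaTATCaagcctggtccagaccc
Cblif: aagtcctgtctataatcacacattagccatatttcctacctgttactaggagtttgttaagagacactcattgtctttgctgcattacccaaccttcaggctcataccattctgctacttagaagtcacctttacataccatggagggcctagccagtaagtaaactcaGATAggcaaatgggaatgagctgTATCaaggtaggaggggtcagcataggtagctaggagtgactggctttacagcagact
Each window held 2 matches, and 17614 of 32851 windows of the same length, 53.6%, held at least 1. Gata4, a GATA factor of the stomach, read 326.5, 524 and 501 on the conventional arrays and 291, 406 and 114 on germ-free corpus 1 to 3.

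**Figure D1:**
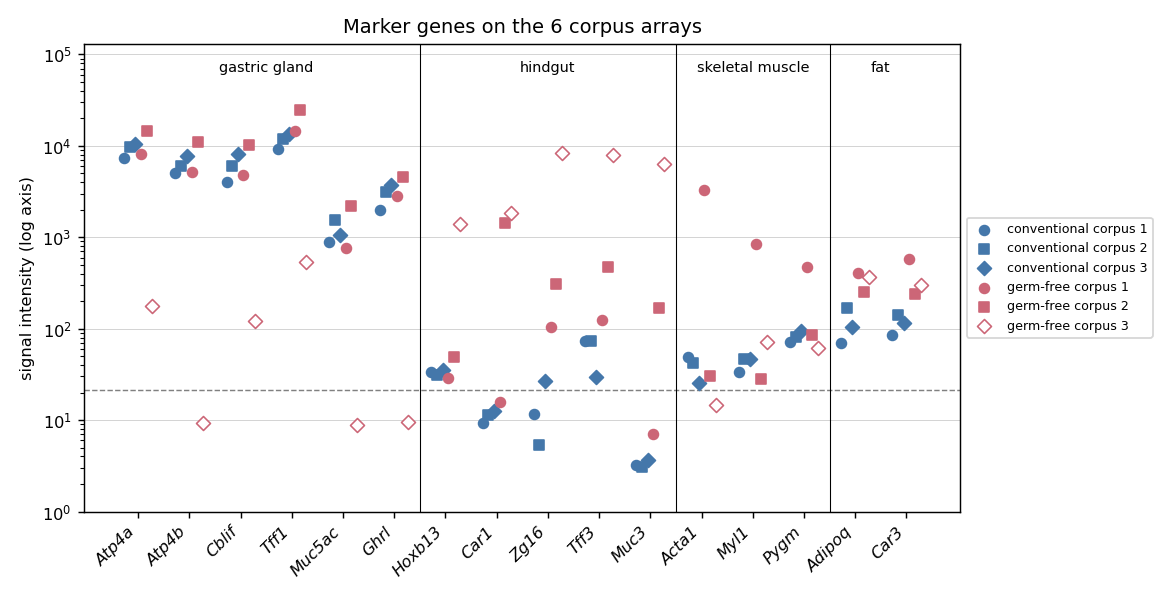
Signal intensity (log axis) of 16 genes on each of the 6 corpus arrays, conventional in blue and germ-free in red, with germ-free corpus 3 as open diamonds and the floor of 21.2 as a dashed line. The open diamonds lie far below the rest for the gastric genes and above them for the hindgut genes, germ-free corpus 2 carries Car1 at 1433, and germ-free corpus 1 carries Acta1 at 3289.

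Germ-free corpus 1 and 2 also carried genes that mark tissues other than the corpus. Germ-free corpus 2 lay above all 3 conventional arrays in 20 of 28 tested hindgut genes, 71.4%, against 33.1% of all 6650 genes tested. Car1, a carbonic anhydrase of colonic epithelium, read 9.2, 11.5 and 12.6 on the conventional arrays and 15.7 and 1433 on germ-free corpus 1 and 2, the latter 40.6% of the median of the 12 colon and rectum arrays. The other 9 genes that were under 60 on every conventional corpus array and had a colon and rectum median over 200 stood at 2.66% to 11.6% of that median on germ-free corpus 2. Among those, Retnlb, a goblet cell peptide, was at 281 and Muc3, an intestinal membrane mucin, at 167. Germ-free corpus 1 lay above all conventional arrays in 18 of 25 tested skeletal muscle genes, 72.0% against 29.0% of all genes, and germ-free corpus 3 in 15, 60% against 43.7%. Acta1, skeletal muscle actin, read 48.7, 42.4 and 25.5 on the conventional arrays and 3289, 30.3 and 14.5 on the germ-free ones, and Myl1, a myosin light chain, reached 834 on germ-free corpus 1 against 27.8 to 71.0 elsewhere. Summed over the 31 hindgut genes on the array, tested or not, signals were 2100.0 to 3236 on the conventional arrays. They were 2174 and 6699 on germ-free corpus 1 and 2, and 81014 on germ-free corpus 3. Summed over the 38 skeletal muscle genes on the array they were 2618 to 3227, then 11854, 2360 and 5195.

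As labelled, limma called 0 of 9033 tested probe sets different between germ-free and conventional corpus at a Benjamini-Hochberg adjusted p under 0.05, or 0%. At an unadjusted p under 0.05 there were 817, 9.04%, of which 423 (4.68%) were higher and 394 (4.36%) lower in germ-free corpus. Without germ-free corpus 3, 4 probe sets were called, 0.0443%, with 1 higher (0.0111%) and 3 lower (0.0332%) in germ-free corpus. The unadjusted p was under 0.05 for 537, 5.94%, of which 219 (2.42%) were higher and 318 (3.52%) lower, and 321 of the 537 were shared with the reading as labelled. Germ-free corpus 1 and 2 both lay above all conventional arrays at 1201 probe sets, 13.3%, and below them at 1035, 11.5%. Every call rested on 2 germ-free arrays, and the number of arrays limits the precision. With the 5 corpus arrays fitted alone, limma called 0 and 804 probe sets had an unadjusted p under 0.05. Leaving out germ-free corpus 1 as well gave 34 calls and leaving out germ-free corpus 2 gave 16, while leaving out conventional corpus 1 or 2 left 1 call.

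Zg16, which encodes a lectin of goblet cell granules, was the gene that rose. It read 11.6, 5.4 and 26.6 on conventional corpus 1 to 3, 105 and 311 on germ-free corpus 1 and 2, and 8395 on germ-free corpus 3. Both germ-free arrays lay above all 3 conventional ones, 2 of which were at the floor of 21.2, so the size of the change depends on the floor. The log2 difference without germ-free corpus 3 was 2.98 ± 0.32 (SE), 7.92-fold, with an adjusted p of 9.85e-05 by limma. Means were 14.5 ± 10.9 (SD, n = 3) and 208 ± 145 (n = 2). As labelled the difference was 4.83 ± 0.87 with an adjusted p of 0.0807. The adjusted p was 0.427 with the corpus arrays alone, and 0.000451 to 0.00129 on leaving out 1 conventional array. Leaving out germ-free corpus 1 or 2 gave 6.65e-07 and 0.00131, but then 1 germ-free array stood alone and was assumed to vary like the other groups. Zg16 stands on the hindgut and exocrine pancreas lists. The intestinal genes described above read above the conventional arrays on germ-free corpus 2 and 3. Their part in the result was not tested. On germ-free corpus 1, Zg16 was at 105, 1.44% of the median of the colon and rectum arrays, Car1 at 15.7 and Retnlb at 7.0. That array lay above all conventional arrays in 2 of 28 tested hindgut genes, 7.14% against 29.0% of all genes. It lay below them in 6, 21.4% against 24.9%. Tff3, the goblet cell trefoil peptide, was next among higher genes, at 73.8, 74.0 and 29.7 against 125 and 470, with an adjusted p of 0.0844.

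Sema3e, a secreted semaphorin that signals through plexin D1 in vessels and nerves, fell by 1.41 on the log2 scale. It read 344, 289 and 311 on the conventional arrays, 104 and 134 on germ-free corpus 1 and 2, and 12.5 on germ-free corpus 3. Every germ-free array lay below every conventional one. Means were 315 ± 28 (SD, n = 3) and 119 ± 20.9 (n = 2), with a standard error of 0.25 on the log2 difference and an adjusted p of 0.0428 without germ-free corpus 3. As labelled the log2 difference was -2.23 ± 0.43 with an adjusted p of 0.0807. The call was lost on leaving out conventional corpus 1, 2 or 3 or germ-free corpus 1, at adjusted p of 0.0937 to 0.153.

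Usp22, a ubiquitin protease of the SAGA complex that acts on histones, read 105, 105 and 60.9 on the conventional arrays and 28.9, 34.7 and 76.6 on germ-free corpus 1 to 3. It fell by 1.47 on the log2 scale without germ-free corpus 3 (SE 0.25, adjusted p 0.0357), and as labelled the difference was -1.04 ± 0.29 with an adjusted p of 0.319. The call was lost on leaving out conventional corpus 1 or 2 or germ-free corpus 1, at adjusted p of 0.0946 to 0.151. Tbrg4, an RNA-binding protein of mitochondria, read 156, 140.5 and 178 on the conventional arrays and 72.1, 47.7 and 161.5 on the germ-free ones. It fell by 1.42 without germ-free corpus 3 (SE 0.23, adjusted p 0.0264), and as labelled the difference was -0.94 ± 0.30 with an adjusted p of 0.383. Its second probe set read 218.5, 182 and 208 against 163, 222 and 205, a log2 difference of -0.09 ± 0.20, so the probe sets of Tbrg4 disagreed. The Tbrg4 call was lost on leaving out conventional corpus 1, 2 or 3 or germ-free corpus 2, at adjusted p of 0.0634 to 0.202.

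**Figure D2:**
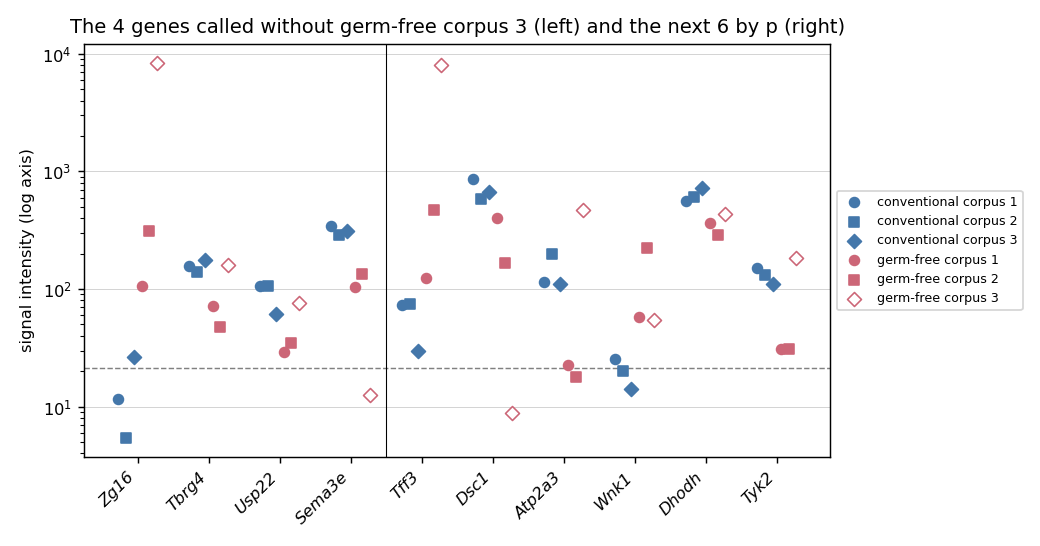
Signal intensity (log axis) of the 4 genes called without germ-free corpus 3 (left) and the next 6 by p (right) on each corpus array; the dashed line is the floor of 21.2. Filled red symbols lie clear of the blue ones for all 10 genes, while germ-free corpus 3 (open) falls among the conventional arrays for Tbrg4 and Usp22.

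The genes just outside the threshold had an adjusted p of 0.0844 without germ-free corpus 3. Dsc1, a desmosomal cadherin of keratinised epithelium, read 856, 584 and 672 on the conventional arrays and 404.5, 165 and 8.8 on the germ-free ones, a log2 difference of -1.43 ± 0.29 over germ-free corpus 1 and 2. In the other regions Dsc1 was at 2.1 to 22.9, also mostly under the floor. Dhodh, the mitochondrial enzyme of pyrimidine synthesis, read 557, 609.5 and 729 against 367.5, 285 and 434, and its germ-free arrays were all below the conventional ones. Tyk2, a kinase of cytokine receptors, read 151, 133 and 111 against 30.9, 30.9 and 185. Atp2a3, a calcium pump of the endoplasmic reticulum, and Wnk1, a kinase that regulates ion transport, had log2 differences of -2.64 ± 0.53 and 2.33 ± 0.47 for the probe sets of lowest p. Their other probe sets gave smaller values, -0.65 and -0.77 for Atp2a3 and 1.50 and 0.23 for Wnk1.

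Some genes separated all 3 germ-free arrays from all 3 conventional ones, germ-free corpus 3 included. As labelled, germ-free arrays were all higher at 704 probe sets, 7.79%, and all lower at 481, 5.32%. The genes of lowest p all had an adjusted p of 0.0807, so none is called. Ociad1, an endosomal and mitochondrial membrane protein, read 780.2, 853 and 827.5 on the conventional arrays and 524, 499 and 469 on the germ-free ones, a log2 difference of -0.72. Thoc3, of the complex that couples transcription to mRNA export, read 151, 137 and 158 against 81.9, 70.6 and 77.0. Atp6v0a1, a subunit of the vacuolar proton pump, read 277, 313 and 247 against 164, 163 and 167. In these 3 genes the germ-free arrays, germ-free corpus 3 included, differed little among themselves. Naming genes by lowest p favours a small spread within a group. P4hb, protein disulphide isomerase, read 419, 678 and 675 against 177, 162 and 153 on 1 of its 2 probe sets, a log2 difference of -1.82 ± 0.40. Smad4, the shared mediator of TGF-beta and BMP signals, read 295, 183 and 227 against 415, 348.5 and 733, and Ccng2, an atypical cyclin of resting cells, read 186.0, 206.0 and 189 against 319, 358 and 823. Pck1, which makes phosphoenolpyruvate for glucose and glyceride synthesis, read 8.3, 9.5 and 28.1 against 118, 58.0 and 316. Pck1 is also expressed in fat, and Adipoq, the fat hormone adiponectin, read 68.9, 166 and 103 on the conventional arrays against 411, 251 and 366.

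Of the genes of acid-secreting cells 0 were called, and the list medians of germ-free corpus 1 and 2 lay on opposite sides of the conventional mean. Of 30 parietal cell genes listed, 20 were tested and 0 were called. Germ-free corpus 1 and 2 both lay above the conventional arrays in 1 and below them in 1, against 13.8% and 10.7% of all 6650 genes, and the median log2 difference was 0.05, against 0.01 over all genes. With quantile normalization that median was -0.06. As labelled it was -0.18. Germ-free corpus 1 was below all conventional arrays in 9 of the 20 genes, 45% against 24.9% of all genes. Germ-free corpus 2 was above all of them in 12, 60% against 33.1%. The medians of these arrays against the conventional mean were -0.27 and 0.29. The log2 differences without germ-free corpus 3 were 0.26 ± 0.78 for Atp4a and 0.29 ± 1.12 for Atp4b, and the standard errors leave room for changes over 2-fold in either direction. Cblif read 4034, 6001 and 8122 against 4817, 10234.5 and 120. Its log2 difference was 0.27 ± 0.91. The gastrin receptor gene Cckbr, 200, 255 and 308 against 245.5, 304 and 361, had overlapping groups, as did the histamine receptor gene Hrh2, 109, 99.7 and 103 against 68.7, 130.4 and 126. Kcnq1, a potassium channel of the parietal cell's acid-secreting membrane, read 260.5, 243 and 272 against 192, 284 and 191. Over the 22 tested genes of acid secretion and its control, 0 were called. In 0 of them did both germ-free arrays lie above or below all conventional ones, against 13.8% and 10.7% of all genes. Germ-free corpus 1 was below all conventional arrays in 10 of these, 45.5% against 24.9% of all genes. Germ-free corpus 2 was above all in 14, 63.6% against 33.1%.

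Several genes for secreted products of the other gland cells had their highest signal on germ-free corpus 2. Tff1, the trefoil peptide of surface mucous cells, read 9348, 11895.5 and 13300.0 on the conventional arrays and 14552, 24572.5 and 542 on the germ-free ones, so germ-free corpus 1 and 2 lay above all conventional arrays, with a log2 difference of 0.73 ± 0.76 and an adjusted p of 1. Tff2, the trefoil peptide of mucous neck cells, had a difference of 0.52 ± 1.32 and Muc5ac, the surface mucin, 0.19 ± 0.67. Among 20 tested mucous cell genes, 0 were called, 1 (5.0%) was higher and 4 (20%) were lower on both arrays than on all conventional ones, against 13.8% and 10.7% of all genes, with a median of -0.14 (as labelled -0.46). Germ-free corpus 1 was below all conventional arrays in 15 of the 20, 75% against 24.9% of all genes. Germ-free corpus 2 was above all in 10, 50% against 33.1%. The lower ones included Muc1, a membrane mucin, at 1905.5, 2160.0 and 1893 against 1411 and 1712. Among 9 tested chief cell genes the median was 0.02 (as labelled -0.48), and 0 were called. Chia1, an acidic chitinase, read 2699.5, 6282 and 8716.5 against 5910.5 and 13979, and Clps, colipase, 8097, 9217 and 11485 against 11215 and 20761. For the chief cell list, germ-free corpus 2 had a median of 0.82 above the conventional mean on the log2 scale and germ-free corpus 1 had -0.45, so these 2 arrays lay on opposite sides. Pgc and Muc6 had no probe set named to them.

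Of the endocrine genes 0 were called. Ghrl, which encodes ghrelin, read 1989, 3089 and 3706 on the conventional arrays and 2814, 4548 and 9.5 on the germ-free ones, a log2 difference of 0.34 ± 0.53 without germ-free corpus 3. Sst, somatostatin, had a difference of 0.50 ± 0.49, and Hdc, which makes histamine, -0.01 ± 0.26. Gast, gastrin, a product of the antrum, was at 24.7 to 68.1 on all 6 corpus arrays. Of 16 tested endocrine genes, 4 (25% against 13.8% of all genes) were higher on both germ-free arrays than on all conventional ones, with a median of 0.19. These were Ddc, Scg3, Cpe and Tac1, of which Tac1 encodes substance P and also marks nerves. As labelled 3 endocrine genes were higher, 18.8% against 7.89% of all genes, with a median of 0.18. The enteric neuron and glia list had 6 higher (24%) and 1 lower (4.0%) of 25, against 13.8% and 10.7% of all genes. As labelled 5 (20%) were higher and 1 (4.0%) lower there, against 7.89% and 5.13%. Of 36 tested squamous genes 3 were higher and 3 lower, 8.33% each against 13.8% and 10.7% of all genes. Their median was -0.04, or -0.22 with quantile normalization and -0.89 as labelled. Krtdap, of differentiating keratinocytes, read 7789, 9347 and 9861 against 10182 and 10823 and 36.3 on germ-free corpus 3.

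**Figure D3:**
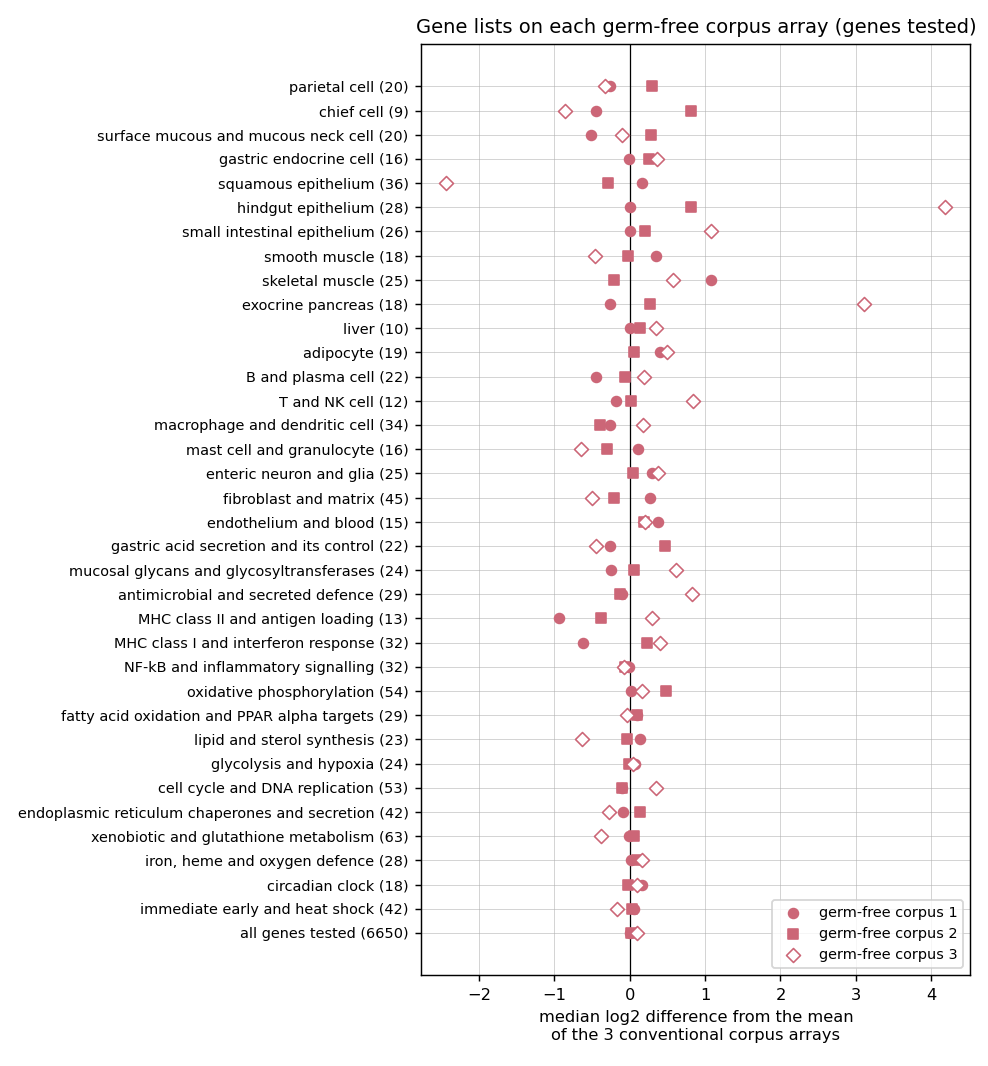
Median log2 difference of each germ-free corpus array from the mean of the 3 conventional corpus arrays for 35 gene lists and for all genes (bottom row), with the number of genes tested in parentheses. Germ-free corpus 3 (open diamonds) stands at 4.19 for hindgut and -2.43 for squamous genes. Germ-free corpus 1 and 2 lie within 1.1 of 0 in every list. Both are below 0 for macrophage, MHC class II, B and plasma cell, secreted defence, NF-kB and cell cycle genes.

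Of the macrophage and dendritic cell genes, more lay below the conventional arrays in germ-free corpus than above them, with 0 called. Without germ-free corpus 3, 9 of 34 tested genes, 26.5%, lay below all conventional arrays on both germ-free arrays and 0 lay above, against 10.7% and 13.8% of all genes, and the median log2 difference was -0.34. As labelled 5 were lower, 14.7% against 5.13% of all genes, with a median of -0.10. The 3 genes of complement C1q were among those lower on germ-free corpus 1 and 2. C1qa read 845, 728.5 and 366 on the conventional arrays and 277, 353 and 542 on the germ-free ones, C1qb 440.4, 436 and 175 against 155.0, 152 and 214.5, and C1qc 604, 535 and 410 against 382, 275 and 386. All 3 germ-free arrays were below the conventional ones for C1qc, and the adjusted p without germ-free corpus 3 was 0.682, 0.499 and 0.688 for the 3 genes. Cd68, a lysosomal protein of macrophages, read 210.3, 183 and 147 against 132, 112 and 142. Itgax, an integrin of dendritic cells, and Folr2, a folate receptor of resident macrophages, were also lower on all 3 germ-free arrays. Conventional corpus 3 was the lowest conventional array for many of these genes, below the other 2 in 27 of 34, 79.4%, against 33.8% of all genes. Summed macrophage signals were 9494, 7789 and 5474 on the conventional arrays, 5643 and 5915 on germ-free corpus 1 and 2, and 13859 on germ-free corpus 3. Its part in the result was not tested.

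MHC class II genes, which present antigen to T cells, had a median log2 difference of -0.71 over 13 tested genes without germ-free corpus 3 (as labelled -0.32), with 0 called and 1 (7.69% against 10.7% of all genes) lower on both germ-free arrays than on all conventional ones. H2-DMb1, which helps load peptide, was that gene, at 403, 394 and 181 against 114 and 164.5 (254 on germ-free corpus 3). Cd74, the class II invariant chain, read 3482.5, 2130 and 733 against 914, 1420 and 2151. Conventional corpus 3 was again lowest of its group, in 12 of 13 class II genes, 92.3% against 33.8% of all genes. The same held for 27 of 32 genes of MHC class I and the interferon response, 84.4%. Germ-free corpus 1 lay below all conventional arrays in 3 of 13 class II genes, 23.1% against 24.9% of all genes, and germ-free corpus 2 in 2, 15.4% against 27.8%.

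Antibody genes varied within both groups by more than between them. Igha, the IgA heavy chain (brightest of 3 tested probe sets), read 6291, 2729 and 84.2 on the conventional arrays and 136, 1079 and 890 on the germ-free ones, a log2 difference of -1.56 ± 1.33 with an adjusted p of 0.995 without germ-free corpus 3. Jchain, which joins IgA and IgM chains, followed the same order of arrays, at 1416.5, 588 and 36.4 against 63.3, 327 and 240. Ighm, the IgM heavy chain (brightest of 10 tested probe sets), read 5288, 1856 and 15.7 against 19.7, 573.5 and 384. Conventional corpus 3 and germ-free corpus 1 were the lowest arrays for all 3 genes. Probe sets of the immunoglobulin family can share sequence, so single values are uncertain. Pigr, which carries IgA and IgM across the epithelium, read 1275, 1965 and 510.5 against 358 and 632, and 9355 on germ-free corpus 3, with an adjusted p of 0.552 without that array.

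Of the secreted defence genes 0 were called. Pglyrp1, a peptidoglycan recognition protein, read 169, 244.5 and 254 on the conventional arrays against 126 and 127 on germ-free corpus 1 and 2, a log2 difference of -0.80 ± 0.20 with an adjusted p of 0.215, and 661 on germ-free corpus 3. Chil3, a chitinase-like protein of macrophages, read 300.0, 855 and 84.5 against 33.5, 62.2 and 46.2, 6.08-fold lower as labelled with an adjusted p of 0.0807. Every germ-free array was lower, and the conventional arrays themselves spanned the widest range. Reg3b, an antimicrobial lectin, read 100.2, 109.5 and 104 against 183, 193 and 335, higher on all 3 germ-free arrays with a log2 difference of 0.85 ± 1.43 without germ-free corpus 3. Both probe sets of the related Reg3g were under the floor on all 6 arrays, at 3.5 to 17.5 and 1.7 to 19.2, so no difference could be measured. Over 29 tested genes of the defence list 2 (6.9%) were higher and 4 (13.8%) lower on germ-free corpus 1 and 2, against 13.8% and 10.7% of all genes, with a median of -0.08 (as labelled 0.18).

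**Figure D4:**
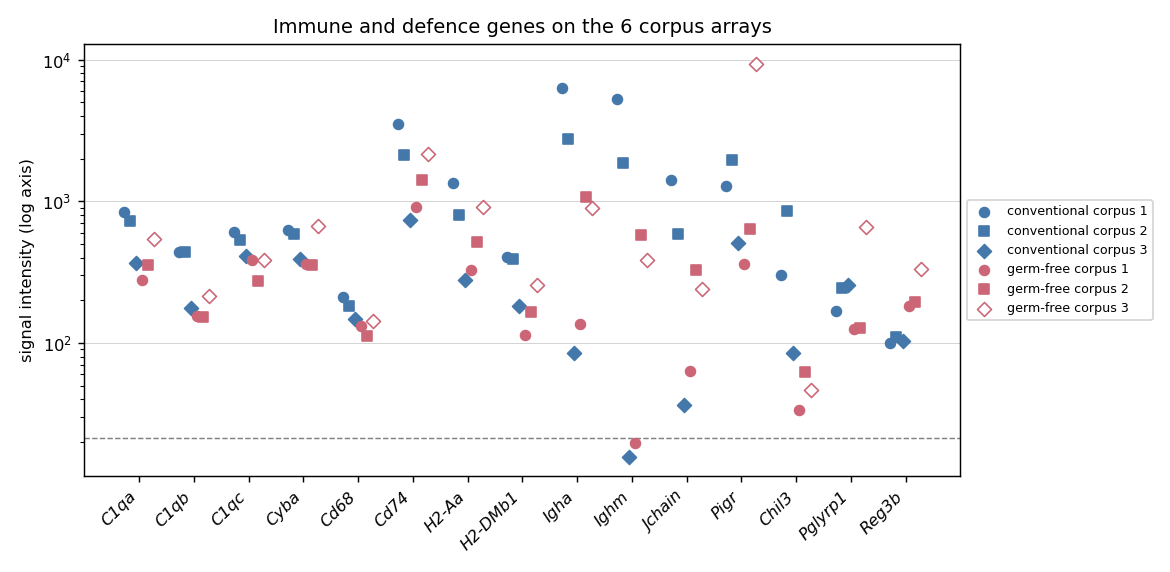
Signal intensity (log axis) of 15 immune and defence genes on each corpus array; the dashed line is the floor of 21.2. C1qc, Cd68 and Chil3 have all 3 red symbols below the blue ones and Reg3b has all 3 above, while Igha, Ighm and Jchain are lowest on conventional corpus 3 and germ-free corpus 1.

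Of the genes of mitochondrial oxidative phosphorylation, more lay above all conventional arrays on both germ-free corpus 1 and 2 than below them, with 0 called. Both germ-free corpus 1 and 2 lay above all conventional arrays in 14 of 54 tested genes, 25.9% against 13.8% of all genes, and below them in 0, with a median log2 difference of 0.23. As labelled 10 were higher, 18.5% against 7.89% of all genes, and 0 lower, with a median of 0.20. Ndufb5, a subunit of complex I, read 2497, 2833 and 2535 on the conventional arrays and 3345, 4579.5 and 2935 on the germ-free ones, a difference of 0.58 ± 0.20 with an adjusted p of 0.632 without germ-free corpus 3. Cox7b, of complex IV, read 1334, 1166 and 1490 against 1699, 2941 and 1806, and Uqcrh, of complex III, 1637, 1851 and 1934 against 2012, 2704 and 2453. Germ-free corpus 2 was above every conventional array in 41 of 54 genes, 75.9%, and germ-free corpus 1 in 17, 31.5%, against 33.1% and 29.0% of all genes. Germ-free corpus 2 was below every conventional array in 3, 5.56%, and germ-free corpus 1 in 16, 29.6%, against 27.8% and 24.9%. Their median log2 differences from the conventional mean were 0.48 and 0.01. Cox6a2 and Cox8b, isoforms of striated muscle and brown fat, are on this list, and Cox6a2 was at 258.5 on germ-free corpus 1, the array with Acta1 at 3289, against 13.9 to 48.0 elsewhere.

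Genes of cell division and of protein folding had more members below the conventional arrays than above. Of 53 tested cell cycle genes, 11 (20.8%) were lower and 5 (9.43%) higher on both germ-free arrays, against 10.7% and 13.8% of all genes, 0 were called, and the median was -0.10 (as labelled 0.01). Ccnd1, cyclin D1, read 337, 358 and 502 against 251, 275 and 282, and Mcm5, of the replicative helicase, 243, 275 and 270.1 against 182, 167 and 197. Mki67, a marker of cycling cells, went the other way, at 114, 103.5 and 92.8 against 149, 127 and 231. Of 42 tested genes of the endoplasmic reticulum, 9 (21.4%) were lower and 3 (7.14%) higher, against the same shares of all genes, with 0 called, and the median was 0.03 (as labelled -0.05). The lower genes included Pdia4, an isomerase related to P4hb, at 339, 398 and 341 against 142, 242 and 235, and Ssr1, of the translocon, at 381.5, 347 and 309.9 against 224, 204 and 307.

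Several genes of smooth muscle and fat had their highest signal on germ-free corpus 1, and 0 were called. Of 18 tested smooth muscle genes 7 (38.9%) were higher and 1 (5.56%) lower on germ-free corpus 1 and 2 than on all conventional arrays, against 13.8% and 10.7% of all genes. Their median was 0.17, or 0.10 with quantile normalization. As labelled 0 were higher and 1 (5.56%) lower, against 7.89% and 5.13% of all genes, with a median of -0.04. Myh11, smooth muscle myosin, read 3477, 3161 and 3690 against 6104, 3851 and 3011, and Vcl, vinculin, 1464, 1258 and 1301.5 against 1858, 1783 and 951. Timp1, an inhibitor of matrix proteases, read 344.5, 218 and 407 against 60.4, 75.4 and 116, with all 3 germ-free arrays below and a log2 difference of -2.21 ± 0.66, adjusted p 0.394, without germ-free corpus 3. Of 19 tested adipocyte genes 5 were higher, 26.3% against 13.8% of all genes, and 0 lower, with a median of 0.36. As labelled 5 were higher, 26.3% against 7.89% of all genes, and 0 lower, with a median of 0.26. Car3, a carbonic anhydrase of fat and muscle, read 86.1, 141 and 114 against 580, 240 and 304. Summed adipocyte signals were 3950 to 4853 on the conventional arrays and 7623, 5000.1 and 5084 on germ-free corpus 1 to 3.

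Whether the effect of status in the corpus differed from that in the other regions was tested as the corpus difference minus the mean difference in jejunum, descending colon and rectum, without germ-free corpus 3. Limma called 1 probe set, 0.0111%, while 438 reached an unadjusted p under 0.05, or 4.85%. That call was Zg16, at 2.82 ± 0.35 on the log2 scale with an adjusted p of 0.00152. Its difference was 0.17 ± 0.28 in jejunum, 0.01 ± 0.28 in descending colon and 0.33 ± 0.28 in rectum, where signals were 6025 to 10755 on all 18 arrays. The labels of some of those arrays are in doubt, since conventional jejunum 3 lay nearest a rectum array and conventional rectum 1 nearest a jejunum array. Without these as well the difference was 2.83 ± 0.37. With a floor at the 40th percentile it was 1.65 with an adjusted p of 0.0823. Sema3e differed by -1.50 with an adjusted p of 0.163. It was at 4.8 to 33.8 in the other regions, mostly under the floor, so there was little signal there to compare. Tbrg4, at 119 to 225 in the other regions, differed by -1.26 with an adjusted p of 0.334.

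**Figure D5:**
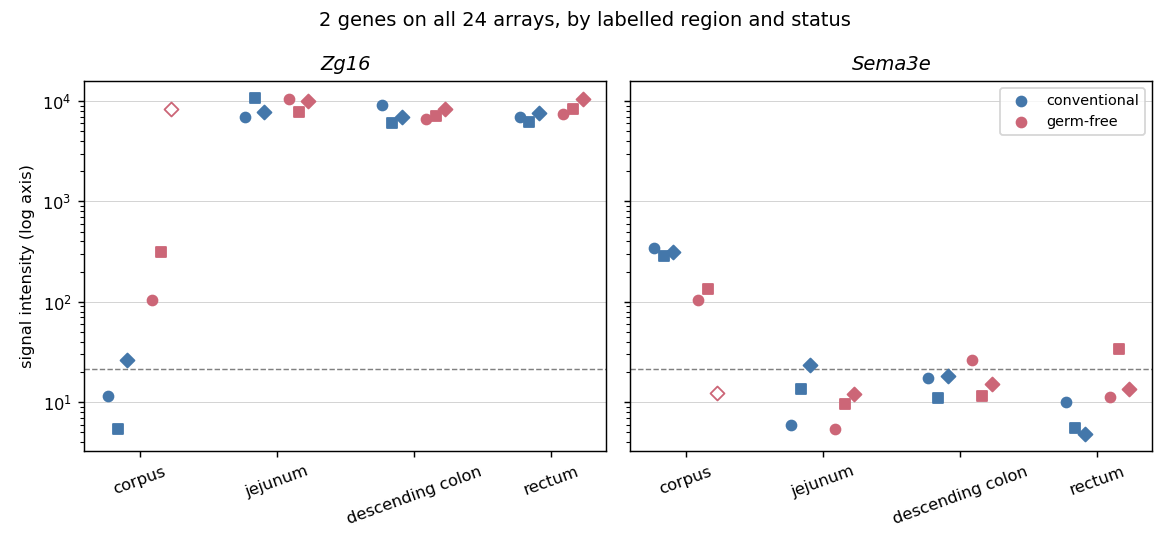
Signal intensity (log axis) of Zg16 and Sema3e on all 24 arrays by labelled region and status, with the floor of 21.2 as a dashed line and germ-free corpus 3 as an open diamond. In Zg16 the 5 other corpus arrays lie at 5.4 to 311, below the 6025 to 10755 of the other regions, and in Sema3e the conventional corpus arrays lie highest, at 289 to 344.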

How the data were processed

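The deposited values are signal intensity per probe set, on a linear scale, in the table the authors deposited; how the authors computed and scaled them is not given in the sources used here, and all 24 arrays shared a trimmed mean of about 200.1. Gene names came from GEO's platform annotation, in which 10855 probe sets carried 1 gene, 396 several and 1237 none. Signals were floored at 21.2 (25th percentile) and put on the log2 scale without further scaling. Probe sets over 51.5 (40th percentile) on at least 3 of 24 arrays were tested, 9033 in all.

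Groups were compared with limma 3.58.1 (R 4.3.3, statmod 1.5.0), with 8 group means over all arrays (23 without germ-free corpus 3), intensity trend, two-sided tests and Benjamini-Hochberg adjustment over all tested probe sets, and residual degrees of freedom of 16 and 15. The procedure was tested on simulated data. Groups that do not overlap were counted on floored signals. In 35 gene lists the brightest probe set stands for a gene, unless a call is described. Some named genes, such as P4hb, Dhodh, Atp6v0a1, Timp1 and Reg3b, had 2 probe sets, of which 1 is shown. Named genes were those called, filled to 20 by lowest p in each reading, 8 of lowest p against other regions, 21 chosen genes and up to 4 of lowest p per list, while further members of the lists were named after their values were seen. The members, lists and tests were chosen with earlier results of these data known. Alternatives changed the scaling, floor, filter, variance model, replicate block and arrays included. Sequences come from RefSeq.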

Additional observations from a re-analysis of the deposited data

Results flagged for a closer look

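Zg16 was flagged because the effect of germ-free status differed between regions by a test of that difference. Its log2 difference in the corpus, without germ-free corpus 3, exceeded the mean of the differences in jejunum, descending colon and rectum by 2.82 ± 0.35 (SE), with an adjusted p of 0.00152 by limma over 9033 probe sets. Both germ-free corpus arrays used lay above the 3 conventional ones. Germ-free corpus 2, where Zg16 was at 311, also carried Car1 at 1433 and Retnlb at 281. Germ-free corpus 1, where Zg16 was at 105, carried them at 15.7 and 7.0. The part of hindgut genes in the result was not tested.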

How the results depend on the processing

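The alternatives were run for the 20 genes of lowest p in each reading, and 0 of those values changed sign: of 373 values as labelled 330 kept their side of the threshold and 43 passed it, and of 354 without germ-free corpus 3, 307 kept it, 30 lost it and 17 passed it. Other genes named here were not followed through the alternatives, and some changed sign between the readings, such as Atp4a, at -1.72 as labelled and 0.26 without germ-free corpus 3, and Pigr, at 0.24 and -1.19. Called probe sets as labelled (0) became 2 with a floor at the 10th percentile, 15 with one at the 40th, 9 with no filter, 6 with no intensity trend, 6 without the 3 arrays that oppose their labels (germ-free corpus 3, conventional jejunum 3 and conventional rectum 1), and 0 to 159 on leaving out 1 array, with 159 without germ-free corpus 1 and 12 without germ-free corpus 2. The 4 calls without germ-free corpus 3 became 2 with quantile normalization, 1 with equal array medians, 24 with the 40th percentile floor, 22 with no filter, 2 with a filter at the 60th percentile, 8 with no trend, 2 with robust variance, 0 with corpus arrays alone, and 1 to 34 on leaving out 1 further array. The 1 call against other regions became 14, 16, 2 and 3 with the 40th percentile floor, no filter, no trend and without the 3 arrays, and 1 to 27 on leaving out 1 array. The causes were not tested. Zg16 was called under 16 of 18 alternatives, Tbrg4 under 11 of 18, Usp22 under 8 of 17 and Sema3e under 6 of 18.

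With status and replicate number as a random block (correlation 0.101) the calls without germ-free corpus 3 were 4, with Zg16 at 3.01, against other regions 1, and as labelled 0. With the number as a fixed block over corpus arrays alone they were 0, with 530 at an unadjusted p under 0.05. Same-numbered arrays correlated in their deviations at 0.01, 0.04 and -0.03, and the labels do not say that a number marks a mouse or a day.

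Signals near the floor, as for Zg16 on the conventional arrays, have no order below it, and 2 or 3 arrays a group limit every comparison.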
